A study of Mus musculus with 12 samples.

Results

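Most of the genes described here encode protein parts of the spliceosome, the SR proteins that guide it, and the SMN-Gemin complex that assembles its small nuclear ribonucleoproteins (snRNPs). They were picked by symbol from the deposited table, as every gene whose name starts with Snrp, Sf3a, Sf3b, Gemin, or with Srsf, Prpf or Lsm and a digit, together with Smn1. The names also take in LSm proteins that act elsewhere, such as Lsm1 in mRNA decapping, Lsm10 and Lsm11 in the U7 snRNP of histone mRNA, and Lsm12, Lsm14a and Lsm14b, and the whole set is called spliceosome genes only for short. The rule gave 65 of 22243 genes and 85 of 28808 transcripts, and the symbols say nothing of how a gene behaved in these cells. By role, 8 of the genes belong to the Sm core, 4 to the proteins particular to U1 and U2 snRNPs, 9 to SF3A and SF3B, 13 to the PRPF proteins, 13 to the LSm proteins, 11 to the SR proteins and 7 to the SMN-Gemin complex.

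The RNA came from bone marrow-derived macrophages (BM-Mɸs), grown from marrow with M-CSF. One group (n = 6 mice) was LysMCre/ErbB4-floxed (ErbB4myeKO, written KO in the sample names), in which Cre is expressed from the Lyz2 locus in myeloid cells so that the receptor tyrosine kinase ErbB4 is lost there and not in the rest of the animal. The control group (n = 6 mice) was ErbB4-floxed littermates without Cre (ErbB4FF, written WT), so both groups carry the floxed allele on C57Bl/6. All 12 cultures received the M1 activation, in which 16 h of priming by IFN-γ at 100 U/mL is followed by 6 h of LPS at 100 ng/mL, and each of 6 litters (batches A to F on the labels, 1 to 6 here) gave a mouse of either genotype.

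Introns are cut from messenger RNA by snRNPs, each a small nuclear RNA held in a ring of Sm or LSm proteins with further proteins of its own. The SMN protein and the Gemins place the Sm ring on the RNA in the cytoplasm, SF3A and SF3B let the U2 snRNP hold the branch point of the intron, and PRPF proteins build and run the later, catalytic complexes. SR proteins bind exons and draw the machinery to them, and in macrophages answering LPS the choice of splice sites changes the isoforms of several signaling proteins.

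The unit throughout is TPM, an abundance scaled to transcript length and library total. A gene's level is the sum of its deposited transcripts, and RNA assigned to its other transcripts is missing from it. Levels can be compared between genes only within this limit. For Gemin5 and Lsm2, 100% of the 31-mers of the deposited transcript also lie in other transcripts of the gene. Whether their values follow the gene or the split of reads was not tested. A fold change is a difference on the log2(TPM + 0.5) scale, the libraries labelled ErbB4myeKO minus those labelled ErbB4FF, and understates the change of genes near 0. TPM carry no read depth. From the authors' deposited mean of log counts, 1 TPM of a transcript of 1000 nt stood for about 6.07 normalized estimated counts (median over 8531 transcripts). The number of genes above 0 was 10214 to 12985 per library, lowest in litter 3 (10214 and 10910), and the deposited transcripts held 59.0% to 74.7% of a library's TPM, most in litter 5 (71.4% and 74.7%).

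Neither gene of the deletion separated the groups. Erbb4 was 0.280 to 0.852 TPM (median 0.623) in libraries labelled ErbB4myeKO and 0.372 to 0.716 TPM (median 0.404) in those labelled ErbB4FF, and a whole-transcript value cannot tell whether the floxed exon is missing. Lyz2, which holds the Cre, was lower in the library labelled ErbB4myeKO in 5 of 6 litters, and in litter 6 it was higher (7997 against 2964 TPM). Groups are therefore named by their labels. Values without litter 6 are also given for the spliceosome genes at an unadjusted p under 0.05, for their counts and for Gemin8. The mean log2(TPM + 0.5) of 4 Y-linked genes was between 2.06 and 2.66 in litters 1 to 4 and between -0.88 and -0.79 in litters 5 and 6, alike within every litter. Macrophage genes were high in every library (Adgre1, 662 to 1060 TPM; Csf1r, 168 to 473 TPM), whereas the 5 red cell markers summed to at most 0.696 TPM, with Hbb-bs and Alas2 at 0 in all 12. The 6 lymphocyte markers summed to at most 18.5 TPM under the ErbB4myeKO label and 25.6 TPM under ErbB4FF, nearly all of it Ighm (at most 18.4 and 25.3 TPM). Dendritic cell markers, with 3 of 6 tested, summed to 44.5 to 122 TPM under the ErbB4myeKO label and 30.6 to 94.0 under ErbB4FF, with Xcr1 higher at an unadjusted p of 0.0280 in limma. Of their log2 fold changes 3 were above 0 and 0 below (median 0.33), and the sum was higher in 5 of 6 litters. Neutrophil markers, with 3 of 7 tested, summed to 38.9 to 360 and 37.6 to 169 TPM, with Camp higher at 0.0369 and 2 of the 3 log2 fold changes above 0, while Ly6g, Mpo and Elane did not exceed 0.549 TPM. Of 7 macrophage markers tested Fcgr1 was lower (unadjusted p = 0.00987), with 3 fold changes above and 4 below 0. Of 6 M1 genes tested Il12b was higher (0.0349) and Cxcl10 lower (0.0214), with 3 above and 3 below 0. Ighm, the only lymphocyte marker tested, was lower (0.0375), and of 5 proliferation genes tested Mki67 was higher (0.0201), with 3 above and 2 below 0. All of these had an adjusted p of 0.603 in limma, and over all genes tested 3.83% were higher and 4.38% lower at an unadjusted p under 0.05. The part of these cell types in the results was not tested, and in bulk RNA fewer cells of a type cannot be told apart from less RNA per cell.

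The spliceosome genes were well expressed in M1-activated BM-Mɸs. Their summed level was 1511 to 2009 TPM, or 0.249% to 0.273% of the deposited TPM of a library, with a median of 1625 TPM under the ErbB4myeKO label and 1643 TPM under ErbB4FF. Averaged over all libraries, 58 of the 65 genes reached 1 TPM, 41 reached 10 TPM and 11 reached 50 TPM. Between 60 and 65 of the genes were above 0 in a library.

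Snrpb, which encodes the SmB protein of the Sm ring, had the highest level. It was 122 to 158 TPM (median 130.7) in libraries labelled ErbB4myeKO and 107 to 159 TPM (median 137) in those labelled ErbB4FF, with the libraries of litters 2 and 4 labelled ErbB4FF below every library labelled ErbB4myeKO and the others overlapping. Srsf2, an SR protein that acts on exon choice, followed with a mean of 101.4 TPM over the 12 libraries, and Prpf38a, which the spliceosome needs for its activation, with 101.2 TPM. The order of these genes could not be told from their spread, since Srsf2 ranged from 76.2 to 147 TPM and Prpf38a from 77.7 to 127.5 TPM. Snrpe of the Sm ring (mean 90.2 TPM), Srsf5 (84.8 TPM) and Sf3b1, the subunit of SF3B that clasps the branch point (70.3 TPM), came next, with ranges that overlapped one another. The highest of the U1 and U2 proteins was Snrpc (U1-C, 65.2 TPM), with Snrpb2 (U2-B″) second at 30.8 TPM. Sf3b2, another SF3B subunit, lay within 46.0 to 59.9 TPM. Prpf8, the scaffold of the catalytic center, had a mean of 28.9 TPM, and the LSm proteins reached only 34.8 TPM with Lsm3, part of the ring on U6 RNA and of the ring that starts mRNA decapping, and 34.3 TPM with Lsm14a, an RNA-binding protein of processing bodies.

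**Figure D1:**
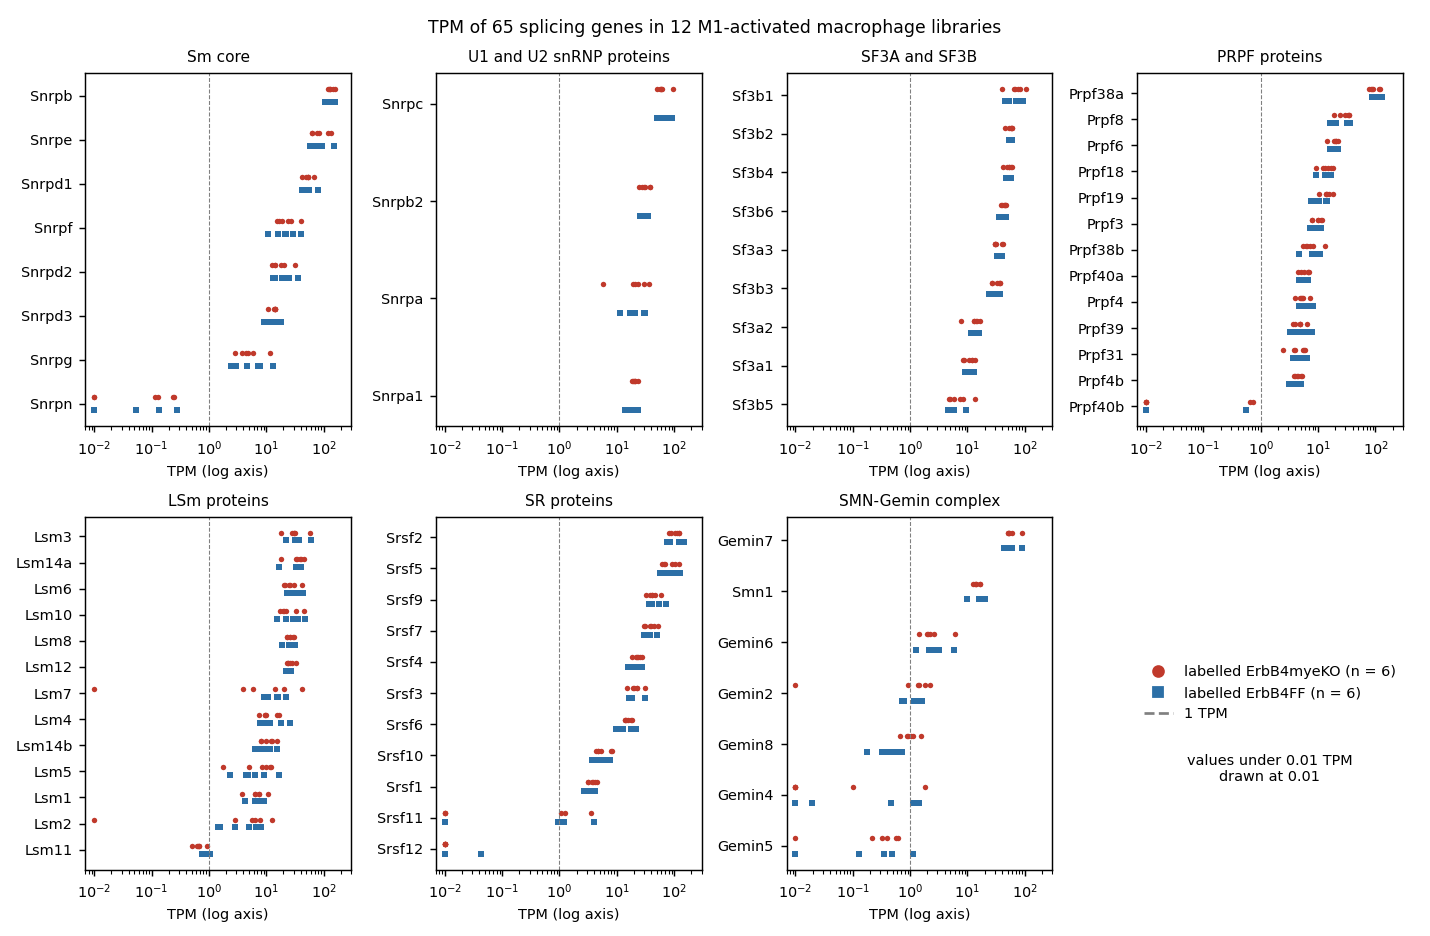
TPM on a log axis of the 65 genes, by role, with each point a library (6 labelled ErbB4myeKO, 6 labelled ErbB4FF; values under 0.01 drawn at 0.01) and the dashed line at 1 TPM. The groups lie over each other for nearly all genes, and Gemin8, Lsm11, Gemin4, Gemin5, Snrpn, Prpf40b and Srsf12 have means under 1 TPM.

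By its deposited transcripts the SMN-Gemin complex was uneven. Gemin7, which pairs with Gemin6 to contact the Sm proteins, was 51.0 to 87.7 TPM (median 53.9) under the ErbB4myeKO label and 43.2 to 88.7 TPM (median 54.6) under ErbB4FF, and its highest library in either group was that of litter 5. Smn1, the core of the complex, was 12.3 to 16.6 TPM (median 13.9) and 9.73 to 20.2 TPM (median 16.2). Gemin6 lay at 1.43 to 6.17 TPM (median 2.13) and 1.27 to 5.92 TPM (median 2.56), again highest in litter 5 in both groups. Gemin2, which grips the Sm proteins during assembly, was at or below 2.27 TPM in every library and at about 0 in the library of litter 3 labelled ErbB4myeKO. Gemin5, the reader of the snRNA code (at most 1.14 TPM), and Gemin4 (at most 1.805 TPM) had means under 1 TPM and were not tested across genes. Of the 31-mers of the Gemin4 transcript, 94.7% also lie in transcripts annotated to Glod4, so the split of reads between them is uncertain.

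Genes entered the test across genes with a mean of 1 TPM or more, and those at the edge of this filter were Lsm11 just under it (mean 0.802 TPM) and Srsf11 just over it (mean 1.18 TPM). No gene of the set was at 0 in all 12 libraries, and the lowest, Srsf12, was above 0 in a single library labelled ErbB4FF (0.0423 TPM). Snrpn, the tissue-restricted counterpart of Snrpb, did not exceed 0.282 TPM.

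The comparison of the labelled genotypes asked whether deletion of ErbB4 in myeloid cells goes with another level of these genes. Of the 58 genes tested, 0 passed an adjusted p of 0.05 in limma with litter as a block (smallest adjusted p 0.603), as 0 of all 8780 genes tested did. At an unadjusted p under 0.05 there were 5 (8.62%), against 8.21% of all genes tested. Of these, 2 were higher under the ErbB4myeKO label (all genes 3.83%) and 3 lower (all genes 4.38%), so the shares were close to the background in either direction. At an unadjusted p under 0.01 there were 0 of 58 (all genes 1.01%), and the groups did not overlap for 0 of the 65 genes (of 15865 genes above 0 in a library, 0.0315% did not in the higher and 0.0063% in the lower direction). The counts moved with the litters used, as they were 0 higher and 0 lower without litter 2, 1 and 3 without litter 3, 1 and 1 without litter 4, 3 and 3 without litter 5, and 2 and 1 without litter 1 or litter 6. Shares over all genes are not given for these fits, so their counts say nothing about the spliceosome genes as a set. The fold changes themselves kept their direction, at 0.25 to 0.42 for Prpf19, 0.18 to 0.26 for Snrpa1, -0.21 to -0.16 for Lsm3, -0.29 to -0.17 for Lsm6 and -0.23 to -0.13 for Prpf38a with a litter left out.

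Fold changes of the spliceosome genes were small. The median log2 fold change was 0.02 (all genes tested, about 0), the median size without regard to sign was 0.081 (all genes 0.131), and the median SE was 0.105 (all genes 0.144). The 95% interval of 46 of the 58 genes lay inside a log2 change of 0.5 in either direction, and that of 55 inside 1. The exceptions to the wider bound were Lsm2, Lsm7 and Srsf11. Lsm2 and Lsm7, both parts of LSm rings, were at 0 in the library of litter 3 labelled ErbB4myeKO, against 2.80 and 9.03 TPM in its littermate, and 65.1% of the 31-mers of Lsm7 lie in other genes, most of them in Gm10146.

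**Figure D2:**
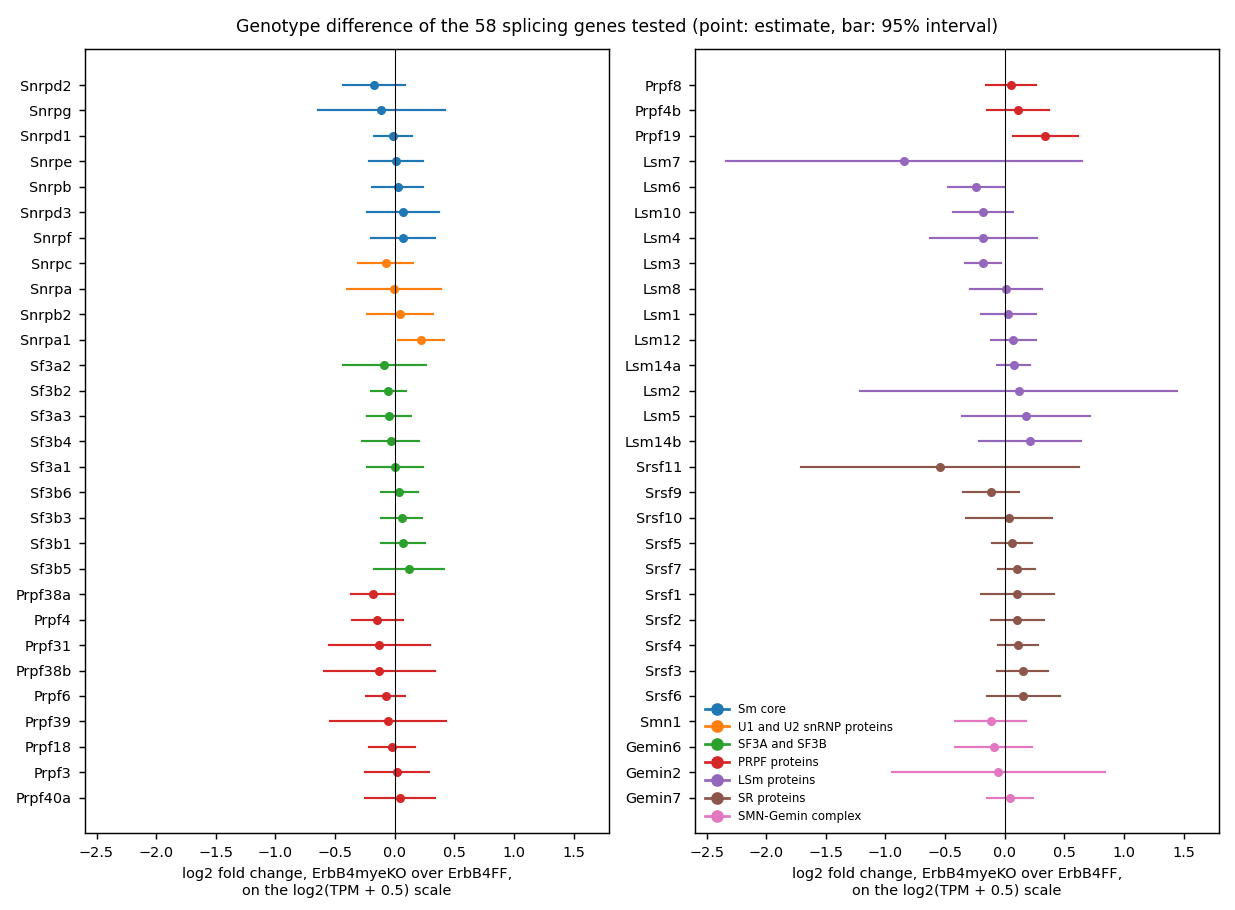
Log2 fold change of the 58 genes tested (points), ErbB4myeKO over ErbB4FF labels on the log2(TPM + 0.5) scale, with the 95% interval of the limma fit (bars), colored by role. The interval leaves out 0 for Prpf19, Snrpa1, Lsm3, Lsm6 and Prpf38a before adjustment, and it is widest for Lsm7, Lsm2 and Srsf11.

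Prpf19, the ubiquitin ligase of the Prp19 complex, which takes part in activating the spliceosome, had the largest difference among the 5. It was 10.4 to 17.8 TPM (median 14.1) in libraries labelled ErbB4myeKO and 7.63 to 14.2 TPM (median 12.1) in those labelled ErbB4FF. The groups overlapped, and the library labelled ErbB4myeKO was the higher in 5 of 6 litters, by a log2 fold change of 0.34 (SE 0.116, unadjusted p = 0.0199, adjusted p = 0.603 in limma). Prpf19 is at chr19:10895231-10909559 of GRCm38, on the + strand.

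Snrpa1 (U2-A′, a protein of the U2 snRNP, chr7:66059003-66074587, + strand) was 18.3 to 23.8 TPM (median 20.5) and 14.1 to 23.5 TPM (median 17.3). It was higher in 6 of 6 litters although the groups overlapped, with a log2 fold change of 0.22 (SE 0.082, unadjusted p = 0.0306, adjusted p = 0.603 in limma). Among genes tested, 2.51% were higher in all 6 litters, and Snrpa1 was 1 of 58 here (1.72%).

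Lsm3 (chr6:91515928-91522625, + strand) was 18.1 to 59.1 TPM (median 30.2) under the ErbB4myeKO label and 21.9 to 60.7 TPM (median 34.5) under ErbB4FF. It was lower in 6 of 6 litters, by little beside its range, with a log2 fold change of -0.18 (SE 0.064, unadjusted p = 0.0246, adjusted p = 0.603 in limma). Of the genes tested, 2.31% were lower in all 6 litters, and Lsm3 was 1 of 58. Lsm6, its neighbor in the LSm rings (chr8:78804865-78821140, - strand), was 20.1 to 42.7 TPM (median 25.6) and 22.8 to 43.1 TPM (median 31.4), lower in 4 of 6 litters, with a log2 fold change of -0.24 (SE 0.10, unadjusted p = 0.0470, adjusted p = 0.603 in limma). Prpf38a (chr4:108563172-108579336, - strand) was 77.7 to 118 TPM (median 88.7) and 87.8 to 127.5 TPM (median 106.7), lower in 5 of 6 litters, with a log2 fold change of -0.19 (SE 0.079, unadjusted p = 0.0492, adjusted p = 0.603 in limma). Without litter 6 the log2 fold change was 0.38 for Prpf19, 0.26 for Snrpa1, -0.18 for Lsm3, -0.17 for Lsm6 and -0.15 for Prpf38a.

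By role, the Sm core had 0 of 7 tested genes at an unadjusted p under 0.05, SF3A and SF3B 0 of 9, the SR proteins 0 of 10 and the tested SMN-Gemin genes 0 of 4. The U1 and U2 proteins had 1 of 4 higher (Snrpa1), the PRPF proteins 1 of 12 higher (Prpf19) and 1 lower (Prpf38a), and the LSm proteins 2 of 12 lower (Lsm3 and Lsm6), beside 3.83% higher and 4.38% lower over all genes tested. Counts of 1 or 2 genes in lists this short say nothing about a role. Among SR proteins 8 of 10 had a log2 fold change above 0, with a median of 0.10, and the median over all members was 0.02. In single litters the median log2 ratio of the SR proteins ran from -0.10 in litter 5 to 0.23 in litter 6, so it did not hold one direction. The nearest to a difference were Srsf3, which also serves the export of mRNA (0.15, 95% interval -0.07 to 0.37, higher in 4 of 6 litters), Srsf4 (0.11, -0.06 to 0.28, 4 of 6) and Srsf7 (0.10, -0.06 to 0.26, 5 of 6). Srsf2 and Srsf5, the highest SR proteins, had log2 fold changes of 0.11 (95% interval -0.11 to 0.33) and 0.06 (-0.11 to 0.23).

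Other leading members were likewise within the spread of littermates. The log2 fold change was 0.03 for Snrpb (95% interval -0.19 to 0.24), 0.01 for Snrpe (-0.21 to 0.24), 0.07 for Sf3b1 (-0.11 to 0.26), -0.05 for Sf3b2 (-0.20 to 0.09) and 0.05 for Prpf8 (-0.15 to 0.26). It was -0.08 for Snrpc (-0.30 to 0.15), 0.04 for Snrpb2 (-0.23 to 0.32) and 0.07 for Lsm14a (-0.06 to 0.21). Prpf4, a protein of the U4/U6 snRNP, was lower in 5 of 6 litters (-0.15, -0.36 to 0.07). For the SMN-Gemin genes tested, it was -0.12 for Smn1 (-0.41 to 0.18), 0.04 for Gemin7 (-0.15 to 0.24), -0.09 for Gemin6 (-0.41 to 0.23) and -0.05 for Gemin2 (-0.95 to 0.84). Gemin4 and Gemin5, which were below the filter, had mean log2 ratios of -0.37 (exact permutation p = 0.562) and 0.09 (exact permutation p = 0.750) over the 6 litters. With a litter left out Gemin4 ran from -0.87 (without litter 5) to -0.05 (without litter 6).

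Gemin8 (chrX:166170454-166190512, + strand) encodes the Gemin that ties the Gemin6-Gemin7 pair to SMN. Its level was low, at 0.666 to 1.57 TPM (median 0.981) in libraries labelled ErbB4myeKO and 0.178 to 0.725 TPM (median 0.410) in those labelled ErbB4FF. The groups overlapped only where the lowest library labelled ErbB4myeKO, of litter 3, met the highest labelled ErbB4FF, of litter 4. Within litters it was higher in 6 of 6, by a mean log2 ratio of 0.72 (exact two-sided permutation p = 0.0312, the smallest that 6 litters can give). Among genes above 0 in at least 1 library, 1.73% were higher in all 6 litters, and 2 of the 65 spliceosome genes were (Gemin8 and Snrpa1). The mean of Gemin8 over all libraries, 0.737 TPM, was below the filter. In limma without a filter the log2 fold change was 0.72 (SE 0.147, unadjusted p = 0.00209, adjusted p = 0.764). At this level the size depends on the pseudocount, and the mean log2 ratio was 1.13 with a pseudocount of 0.1 and 0.50 with 1. An unadjusted p under 0.01 in that unfiltered fit was reached by 0.750% of 15865 genes and by 2 of the 65, Gemin8 and Lsm3. Without litter 6 the mean log2 ratio was 0.76.

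The difference in Gemin8 lay in a single transcript. ENSMUST00000130880 was 0.634 to 1.14 TPM (median 0.669) in all 6 libraries labelled ErbB4myeKO, and it was listed at 0 in 5 libraries labelled ErbB4FF and at 0.547 TPM in the last, of litter 4. The groups did not overlap, which was so for 0.0465% of the 19346 transcripts above 0 in at least 1 library (in the direction of higher under the ErbB4myeKO label) and for 1 of 84 spliceosome transcripts. Its mean log2 ratio was 1.15 (exact two-sided permutation p = 0.0312, the smallest possible), and without a filter its adjusted p in limma was 0.778. With 5 libraries at 0 the size is set by the pseudocount, and it was 2.65 with 0.1 and 0.71 with 1. The other transcripts did not share the pattern. ENSMUST00000056410 was above 0 in 4 libraries of either group (at most 0.709 and 0.567 TPM), and ENSMUST00000087169 was above 0 in 1 and 2 libraries (at most 0.199 and 0.461 TPM).

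At these levels few reads stand behind each value. On the scale above, the 6 libraries labelled ErbB4myeKO held about 5.34 to 9.62 normalized estimated counts of ENSMUST00000130880. This transcript has an exon of 235 nt in its leader (exon 2 of 5, chrX:166176845-166177079 in GENCODE M21 on GRCm38) that the other Gemin8 transcripts lack, and 235 of its 1359 31-mers occur in no other transcript. Within that exon 27 of 205 31-mers also lie in other genes, 1411 of them. The transcripts share the same coding sequence of 714 nt, 30.02% of the 31-mers of ENSMUST00000130880 also occur in Gm5455, and whether the values follow Gemin8 itself or the assignment of shared reads was not tested. The start of the coding sequence is printed to show what reads from all 3 transcripts have in common, with the start codon in capitals.
Gemin8 coding start: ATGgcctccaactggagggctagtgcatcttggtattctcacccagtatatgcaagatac

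**Figure D3:**
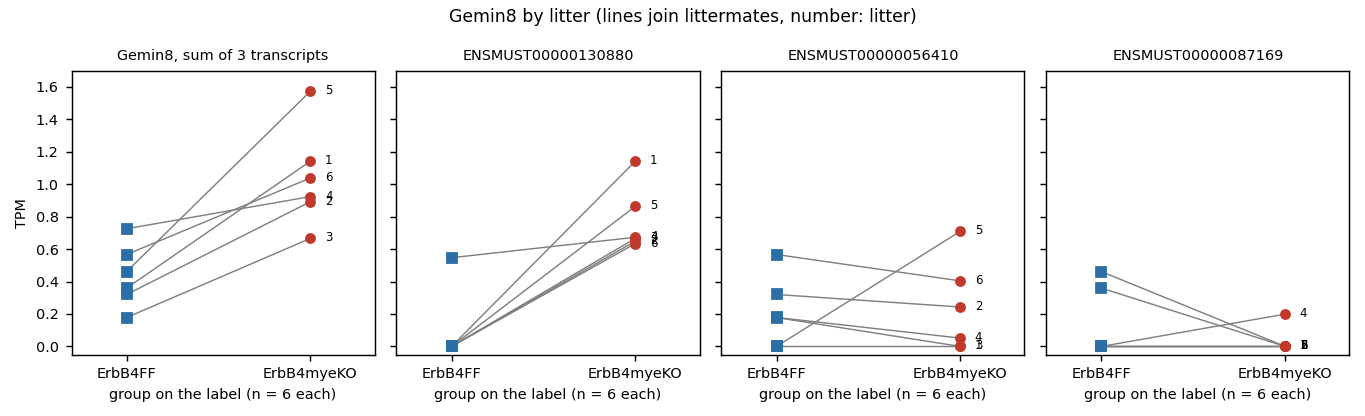
Gemin8 in TPM by litter, as the sum of its 3 transcripts and for each transcript alone, with littermates joined by a line and the litter number at the right. Every line of the sum slopes upward from the ErbB4FF to the ErbB4myeKO label, and ENSMUST00000130880 is at 0 in 5 of the 6 ErbB4FF libraries.

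Lsm11, which with Lsm10 is part of the U7 snRNP that processes histone mRNA, also lay below the filter. It was 0.515 to 0.914 TPM (median 0.663) under the ErbB4myeKO label and 0.762 to 1.03 TPM (median 0.963) under ErbB4FF. It was lower in 6 of 6 litters with groups that overlapped, by a mean log2 ratio of -0.29 (exact two-sided permutation p = 0.0312, the smallest possible). The unfiltered limma fit gave it an SE of 0.126, an unadjusted p of 0.0591 and an adjusted p of 0.764. Among genes above 0 in at least 1 library, 1.38% were lower in all 6 litters, and 2 of the 65 were (Lsm11 and Lsm3).

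Of 70 spliceosome transcripts tested, 0 passed an adjusted p of 0.05, and 5 (7.14%) had an unadjusted p under 0.05 in limma, against 6.72% of all 10085 transcripts tested. Of the 5, 3 were higher under the ErbB4myeKO label (all transcripts 3.12%) and 2 lower (all transcripts 3.6%). A single transcript had an unadjusted p under 0.01, where the share over all transcripts was 0.873%. This was ENSMUST00000055575 of Lsm10, at 9.90 to 31.6 TPM (median 19.5) under the ErbB4myeKO label and 15.5 to 39.5 TPM (median 22.9) under ErbB4FF. It was lower in 6 of 6 litters, as 1 of 70 spliceosome transcripts and 2.24% of all transcripts tested were, with a log2 fold change of -0.36 (SE 0.088, unadjusted p = 0.00433, adjusted p = 0.685 in limma). The other transcript of Lsm10, ENSMUST00000179323, has the same coding sequence and 0 31-mers of its own, and it ranged from 0 to 13.6 TPM and from 0 to 8.98 TPM. Summed, Lsm10 was 17.6 to 45.1 TPM and 15.5 to 48.1 TPM, with a log2 fold change of -0.18 (SE 0.108, adjusted p = 0.644 in limma), higher in 1 of 6 litters.

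Gemin7 also had a transcript that departed from the sum of the gene. ENSMUST00000122127, with 60 of its 622 31-mers found in no other transcript, was above 0.01 TPM in 4 libraries labelled ErbB4myeKO (4.61 to 12.8 TPM) and in 2 labelled ErbB4FF (0.0157 and 5.82 TPM). It passed the filter only through the libraries labelled ErbB4myeKO (mean 5.06 TPM, against 0.972 TPM), so its place among the 3 transcripts counted as higher is no support for a difference. Its log2 fold change was 2.0 (SE 0.781), while the most abundant transcript, ENSMUST00000051364, gave -0.13 and the sum 0.04.

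Prpf6 had transcripts whose levels traded places in 2 libraries. Its protein joins U5 to U4/U6 in the tri-snRNP. ENSMUST00000002529 was 14.8 and 14.3 TPM in the libraries of litters 4 and 5 labelled ErbB4myeKO and 1.04 to 1.95 TPM in the other 10. In the same 2 libraries ENSMUST00000136481 was 5.59 and 0.193 TPM, against 14.8 to 20.9 TPM in the others. Summed, Prpf6 was 14.5 to 22.0 TPM (median 20.0) under the ErbB4myeKO label and 15.8 to 22.3 TPM (median 20.9) under ErbB4FF, a log2 fold change of -0.08 (SE 0.071, adjusted p = 0.748 in limma).

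The transcripts of Prpf6 are the same RNA but for their ends. ENSMUST00000136481 (3048 nt) has 3 further bases at its 5′ end and ENSMUST00000002529 (3054 nt) has 9 at its 3′ end, with 3045 bases shared in between. GENCODE M21 ends exon 20 at position 181654962 of chromosome 2 (GRCm38) in ENSMUST00000002529 and resumes at 181655422, and in ENSMUST00000136481 it ends at 181654961 and resumes at 181655421. The junction is printed below for both, since no read across it can tell them apart, and the capital marks the base that closes exon 20 in the first and opens exon 21 in the second.
Prpf6 ENSMUST00000002529: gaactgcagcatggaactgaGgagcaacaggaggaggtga
Prpf6 ENSMUST00000136481: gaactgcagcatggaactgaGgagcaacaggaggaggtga

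**Figure D4:**
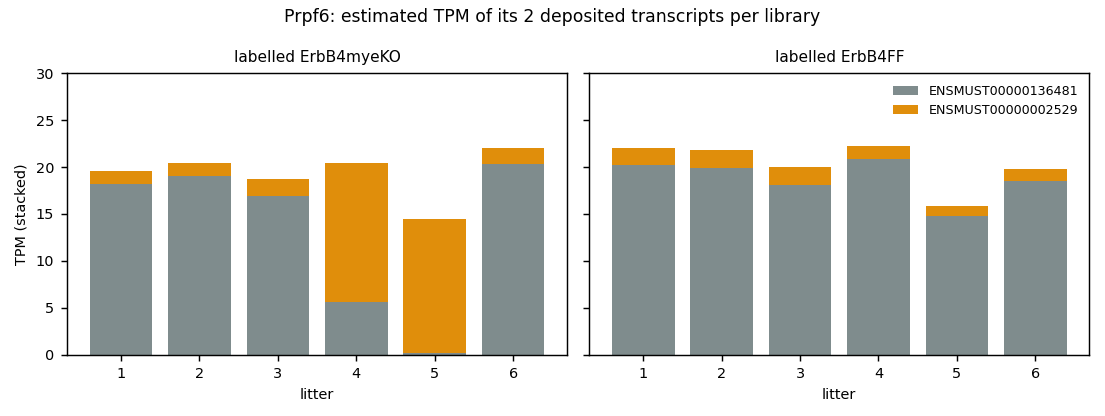
TPM of the 2 Prpf6 transcripts, stacked, in each library by litter (bars start at 0). In litters 4 and 5 labelled ErbB4myeKO most of the level is given to ENSMUST00000002529, whereas the height of the stack, 14.5 to 22.3 TPM, stays alike.

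The SD of the litter means was 0.298 at the median of the 58 genes on the log2 scale (all genes tested 0.414), and the SD of the ratios within litters was 0.256 (all genes tested 0.342). The deviations of littermates correlated over the 58 genes with r between 0.06 in litter 4 and 0.76 in litter 5 (a correlation across genes, which share a library and are not replicates). In the 13 genes whose most abundant transcript is under 1000 nt, the median deviation from the gene mean was 0.65 and 0.81 in the libraries of litter 5 and -0.36 and -0.34 in those of litter 3. In the 19 genes over 3000 nt it was -0.17 and 0.17 in litter 5 and 0.08 and 0.07 in litter 3. For the short genes the littermates of litters 3 and 5 deviated alike, while in litter 6 the medians were -0.05 and 0.22. The median log2 fold change was -0.02 for the short, 0.03 for the middle and 0.03 for the long class.

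Lsm7 (SD over litters 1.32), Lsm2 (1.04), Srsf11 (0.91), Lsm5 (0.86), Snrpa (0.69) and Snrpg (0.67) had the largest SD of litter means. In Lsm7, Lsm2 and Srsf11 the ratio within litters had a larger SD still (1.92, 1.697 and 1.40), and each had libraries at 0. Of these 6, Lsm2, Lsm5 and Lsm7 are LSm ring proteins, Snrpg is SmG of the Sm ring and Snrpa is U1-A. The smallest SDs of litter means were those of Sf3b4 (0.07), Sf3b2 (0.09) and Sf3b6 (0.11), while Sf3b5 (0.45) and Sf3b1 (0.41) of the same complex were above the median. Litter 5 also had the largest share of TPM in deposited transcripts and litter 3 the fewest genes above 0. The part of RNA quality or library preparation in this was not tested.

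**Figure D5:**
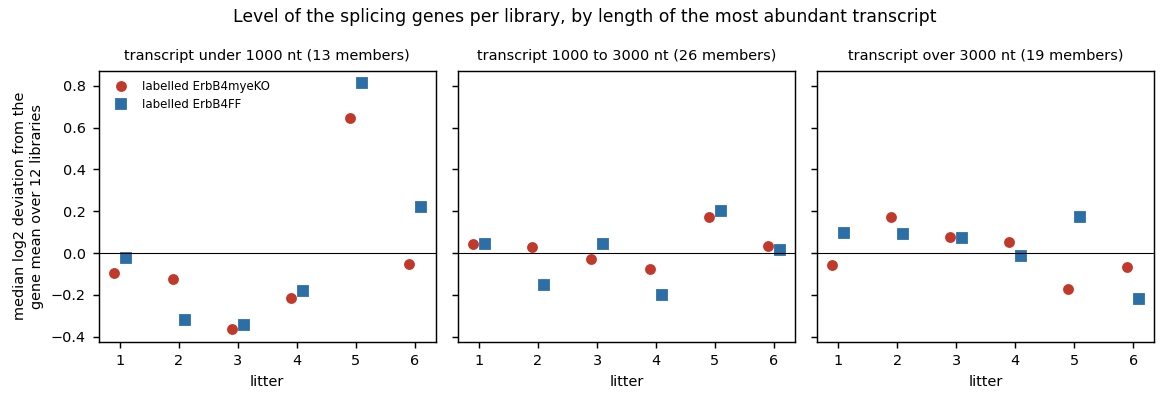
Median log2 deviation from the gene mean over 12 libraries, per library and litter, for genes whose most abundant transcript is under 1000 nt (13 genes), 1000 to 3000 nt (26) or over 3000 nt (19). Under 1000 nt both libraries of litter 5 lie above 0.6 and both of litter 3 below -0.3. Over 3000 nt the libraries of litter 5 lie on either side of 0, at -0.17 and 0.17.

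Promoters were read from RefSeq (GRCm38.p6) for 56 of the 65 genes, as the 250 bases before the start site. CCGGAAG, the core that ETS factors bind, was found before 19 of the 56 (33.9%), against 7.83% of all 27025 genes with a promoter there. GGGCGG, the GC box, was before 66.1% against 35.4%, CCAAT before 37.5% against 37.5%, TATAAA before 8.93% against 14.3%, CACGTG before 7.14% against 6.86%, and TGACGTCA before 7.14% against 1.77%. Among genes that passed the 1 TPM filter, the comparison is of 49 spliceosome genes with all 6986. There CCGGAAG was before 36.7% against 17.8%, GGGCGG before 63.3% against 64.5%, CCAAT before 36.7% against 39.9%, TATAAA before 8.16% against 7.60%, CACGTG before 6.12% against 10.54%, and TGACGTCA before 8.16% against 3.31%. All were searched on both strands. The Gemin8 promoter is printed since Gemin8 held the only spliceosome transcript whose groups did not overlap (chrX:166170204-166170453, + strand), with capitals on its CCAAT, its 2 GC boxes on the opposite strand and its CCGGAAG.
Gemin8 promoter: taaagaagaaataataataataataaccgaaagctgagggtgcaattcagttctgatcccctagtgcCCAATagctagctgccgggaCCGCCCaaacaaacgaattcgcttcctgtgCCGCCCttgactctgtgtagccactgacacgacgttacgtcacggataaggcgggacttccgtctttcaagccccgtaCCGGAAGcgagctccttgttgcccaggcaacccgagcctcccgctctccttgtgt
These are matches of letters and say nothing of factors bound in these cells.

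Genes that work beside these proteins were taken as 4 lists. Of 48 other snRNP and spliceosome factors, 47 were tested, with 1 higher and 1 lower at an unadjusted p under 0.05 and 0 at an adjusted p under 0.05 in limma, where 3.83% and 4.38% of all genes tested were higher and lower at the unadjusted threshold. These were Phf5a, a small SF3B subunit outside the naming rule (10.1 to 16.4 TPM under the ErbB4myeKO label, 5.72 to 14.5 TPM under ErbB4FF, log2 fold change 0.42, SE 0.150, higher in 6 of 6 litters), and Snrnp25 of the minor spliceosome (0 to 18.4 and 4.17 to 24.4 TPM, -0.95, SE 0.400, lower in 6 of 6). Without litter 3, where Snrnp25 was at 0 in the library labelled ErbB4myeKO, these were 0.27 for Phf5a and -0.50 for Snrnp25. Dhx16 missed the threshold (-0.26, SE 0.115). Of all genes tested, 2.51% were higher and 2.31% lower in all 6 litters.

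In the assembly and transport of snRNPs, 14 of 14 genes were tested, with 1 higher (all genes tested 3.83%) and 1 lower (all genes tested 4.38%). Clns1a (pICln), which holds Sm proteins before SMN takes them, was 15.6 to 26.2 and 13.3 to 25.7 TPM, with a log2 fold change of 0.19 (SE 0.077), higher in 6 of 6 litters. Ddx20, the helicase also known as Gemin3, was 0.814 to 2.60 and 1.26 to 4.17 TPM, with a log2 fold change of -0.36 (SE 0.144), lower in 5 of 6. Ncbp1 of the cap-binding complex was higher in 6 of 6 litters (0.24, SE 0.111) and missed an unadjusted p of 0.05 in limma. Over all genes tested, 2.51% were higher in all 6 litters.

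Among SR protein kinases and SR-related proteins 12 of 14 were tested, with 0 higher (all genes tested 3.83%) and 1 lower (all genes tested 4.38%). The lower gene was the kinase Clk2 (0 to 3.12 and 0 to 4.43 TPM, log2 fold change -1.35, SE 0.564). Clk2 passed the filter only through the libraries labelled ErbB4FF (mean 2.12 TPM, against 0.520 TPM, with 5 of 6 libraries labelled ErbB4myeKO under 0.01 TPM), so its call is no support for a difference. Acin1 (-0.44, SE 0.345) and Srrm2 (0.24, SE 0.199) did not reach it, and without litter 2 they were at -0.17 and 0.09. Among hnRNP proteins, which oppose SR proteins at many exons, 21 of 24 were tested, with 1 higher (all genes tested 3.83%) and 0 lower (all genes tested 4.38%). That gene was Hnrnpr (0.725 to 11.01 and 0.0270 to 4.57 TPM, 0.98, SE 0.410), and Hnrnph2 (-0.11, SE 0.060) and Hnrnpc (-0.83, SE 0.509) came next in order of p. Without litter 4 the log2 fold change of Hnrnpr was 0.56, and without litter 3 that of Hnrnpc was -0.34. The adjusted p was 0.603 for every one of these genes called at the unadjusted threshold, and the median log2 fold changes of the 4 lists were -0.01, 0.09, 0.03 and 0.01 in the order given.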

How the data were processed

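RNA of 12 M1-activated BM-Mɸ cultures was sequenced by the study as single-ended reads of 75 bp. Base calls by CASAVA, pseudoalignment by kallisto and a fit by sleuth are named in the submitters' processing notes with the mm10 build, and versions are not given in the sources used here. The authors deposited TPM of principal transcripts. The authors also deposited a natural log column, taken from its name as sleuth's mean over libraries of log normalized estimated counts, used here only to relate TPM to counts, and per-transcript p-values, q-values and a log2 ratio of their own comparison, which were not used.

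The table has 29213 lines, of which 405 repeat a transcript and were dropped. A gene's TPM is the sum of its deposited transcripts. After adding 0.5 and taking log2, the 8780 genes and, separately, the 10085 transcripts whose mean reached 1 TPM were fitted by limma 3.58.1 in R 4.3.3 (eBayes with trend, litter as a block), with Benjamini-Hochberg adjustment over all of them. Single genes also had an exact two-sided permutation test, in which genotype was exchanged within litters in all 64 ways, with no adjustment. Littermates came from the same litter and batch on the labels, and their deviations correlated with r between 0.27 and 0.77 over all genes tested. Animals are separate, and in the blocked fit and the permutation test p-values rest on how the ratio within litters varied from litter to litter. Differences in level between litters are taken out. The fit was also run on simulated data with changes planted in genes past the filter. Its outcome is not given here, and it is no check on the small changes or on the genes below the filter.

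Positions and 31-mers are from GENCODE M21 (GRCm38). Named genes are the SMN-Gemin genes, the 2 highest of each role, the 5 of smallest p in either direction, genes with a transcript at p under 0.01, those next to the filter, and the 3 of smallest p in each other list. Prpf6, Lsm2, Lsm5, Lsm7, Snrpa, Snrpg, Snrpn, Srsf12, Sf3b4, Sf3b5 and Sf3b6 were named after their values were seen. The members and lists were chosen with earlier results of these data known. Sex is not on the labels. Alternatives were no litter block, pseudocounts of 0.1 and 1, no filter or 5 TPM, median-ratio rescaling, no trend, a Y-linked covariate, each litter left out and the most abundant transcript alone. No filter together with the Y-linked covariate, and leaving out litters for the other lists' named genes, were added after seeing the data.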

Additional observations from a re-analysis of the deposited data

Results flagged for a closer look

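In the groups of 6 libraries, 13 values of named spliceosome genes and transcripts stood apart from the other 5 of their group by a gap of more than 0.625 of the group's range. With 72 groups examined, chance alone flags about 1 in 20. Of the 13 values, 11 were from litter 5. Under the ErbB4myeKO label these were Gemin4 (1.805 TPM), Gemin6 (6.17 TPM), Gemin7 (87.7 TPM), Lsm3 (59.1 TPM), Snrpc (96.9 TPM) and Srsf11 (3.52 TPM). Under the ErbB4FF label they were Gemin7 (88.7 TPM), Snrpe (151.7 TPM), Srsf3 (30.8 TPM), Srsf11 (4.07 TPM) and, as the only low value, Lsm14a (16.5 TPM). The remaining 2 were Gemin8 transcripts of litter 4, ENSMUST00000087169 under the ErbB4myeKO label (0.199 TPM) and ENSMUST00000130880 under the ErbB4FF label (0.547 TPM), each the only library of its group above 0.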

How the results depend on the processing

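No spliceosome gene or transcript reached an adjusted p of 0.05 under any alternative run in limma. The counts at an unadjusted p under 0.05 were less steady. Without the replicate block they were 0 higher and 0 lower for genes and 0 and 0 for transcripts, against 2, 3, 3 and 2. Without the trend, and with the Y-linked covariate with or without the filter, 1 gene and 1 transcript were lower. Since Y-linked levels hardly differ within a litter, that covariate mainly costs a degree of freedom beside the block and says nothing of sex. With a litter left out, genes higher numbered 0 to 3, genes lower 0 to 3, transcripts higher 0 to 3 and transcripts lower 1 to 3, with 0 genes in either direction without litter 2. Shares over all genes or transcripts are not given for these alternatives, so their counts cannot be set against a background. The median log2 fold change of the LSm proteins went from 0.020 to -0.080 at a pseudocount of 0.1, and ran from -0.071 to 0.023 with a litter left out. Medians of the other roles moved by less than the SD of their litter medians. For Gemin8 the mean log2 ratio was 0.64 to 0.82 with a litter left out, for ENSMUST00000130880 1.04 to 1.353, and for Lsm11 -0.33 to -0.23, each with an exact permutation p of 0.0625, the smallest that 5 litters allow. Pseudocounts of 1 and 0.1 gave 0.50 and 1.13, 0.71 and 2.65, and -0.21 and -0.42. Over 12 unpaired libraries without the replicate block the exact permutation p was 0.00433, 0.00216 and 0.00649. That test ignores which libraries are littermates. The value of 0.00216, for ENSMUST00000130880, is the smallest it can give and only restates that its groups did not overlap. These p-values have no adjustment and no share over all genes or transcripts beside them. They are no stronger support for a difference than the test within litters. With a litter left out the sign turned for Gemin2 (-0.25 to 0.35, above 0 without litter 3), Gemin7 (-0.011 to 0.097, below 0 without litter 2, and -0.13 from its most abundant transcript), Snrpb (-0.030 to 0.094, below 0 without litter 2 or 4), Snrpe (-0.077 to 0.065, below 0 without litter 2 or 3), Snrpb2 (-0.068 to 0.11, below 0 without litter 2) and Gemin5 (-0.11 to 0.29, below 0 without litter 6). The cause was not tested. Depth is not in the files, and the Gemin8 transcript ENSMUST00000130880 rests on under 10 estimated counts per library.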
